A study of Mus musculus with 12 samples.

Results

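Mitochondrial ribosomal protein genes were followed across 3 groups of mouse embryonic stem cells. They were taken by name, as every gene that the array lists as Mrpl or Mrps followed by a number alone, which gave 73 of 36406 gene names. The array carried 96 probes for them, and 95 were well above background on all 4 arrays of at least 1 group. Of the 73 genes, 72 could be tested, among 22590 genes tested in all. Mrpl21 had 1 probe, which was above background on 1 array, and was not tested. The name is a rule and not a function: Mrps36 is now known as a component of the 2-oxoglutarate dehydrogenase complex, and Mrps30 encodes a protein that sits in the large subunit.

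The mitochondrial ribosome translates the few messenger RNAs encoded by mitochondrial DNA, which are mostly membrane subunits of the respiratory chain. Its ribosomal RNAs come from mitochondrial DNA, but all its proteins are encoded in the nucleus, made in the cytosol and imported, so that both genomes supply parts of it. Some of the proteins have relatives in bacterial ribosomes (29 of the 47 large-subunit and 15 of the 24 small-subunit genes tested here), and the others are specific to mitochondria.

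Each group had 4 arrays, and the labels describe the 4 as independent biological samples. Id1KO_Zrf1KD cells are Id1 knockout embryonic stem cells infected with lentivirus carrying hairpins against Zrf1 and kept under puromycin as a stable population. Id1KO cells are the knockout line without hairpins, and WT cells are wild-type embryonic stem cells. All cells grew in medium with fetal bovine serum and LIF, the cytokine that maintains mouse stem cells. The labels give no hairpin control, so knockdown cannot be told apart from infection and selection, and no separate lines are named within a genotype. The array lists Zrf1, a J-domain protein of chromatin and ribosomes, as Dnajc2. Id1 encodes a protein that binds helix-loop-helix factors and keeps them off DNA.

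Levels are log2 of the processed signal minus the 75th percentile of the same array, so that 0 is that percentile. Dnajc2 averaged -0.27 ± 0.08 in Id1KO_Zrf1KD cells and 1.89 ± 0.11 in Id1KO cells (SD, n = 4 each), 4.47-fold lower (limma adjusted p = 9.7e-10). The Id1 probe read 1.23 ± 0.31 in Id1KO cells and 0.86 ± 0.20 in WT cells (limma adjusted p = 0.052), and it does not show the deletion. Id1 was called higher in Id1KO than in WT cells in 9 other settings, among them the slide block, the authors' deposited values and the fits without WT replicate 4, Id1KO replicate 3 or Id1KO_Zrf1KD replicate 3 (limma adjusted p = 0.0016 to 0.048 over the 9). The 75th percentile itself moved with the group, at 554 to 596 units in Id1KO_Zrf1KD arrays, 393 to 492 in Id1KO arrays and 441 to 550 in WT arrays. All 8 stem cell markers were above background on every array. They summed to 844 to 861 times the array percentile in Id1KO_Zrf1KD cells, 1060 to 1190 in Id1KO cells and 941 to 1090 in WT cells. Dppa5a, the brightest of them, weighs most in these sums. Its mean log2 level was 8.87 in Id1KO_Zrf1KD, 9.53 in Id1KO and 9.03 in WT cells. The sums therefore mostly follow this gene and do not describe the markers as a set. At a limma adjusted p under 0.05, 3 of the 8 markers were higher and 3 lower in Id1KO than in WT cells. Among these, Nanog and Zfp42 were 2.02-fold and 2.03-fold lower, and Tdgf1 and Utf1 1.72-fold and 1.58-fold higher. Of all genes, 42.5% were higher and 29.6% lower in that comparison. In Id1KO_Zrf1KD against Id1KO cells 4 of the 8 were higher and 3 lower, against 32.3% and 39.8% of all genes. The 10 fibroblast markers summed to 89.4 to 95.3 times the array percentile in Id1KO_Zrf1KD cells, 15.9 to 17.2 in Id1KO cells and 32.4 to 35.4 in WT cells, with Lum above background on no Id1KO or WT array. All 10 fibroblast markers were higher in Id1KO_Zrf1KD than in Id1KO cells, against 32.3% of all genes. In Id1KO against WT cells 7 were lower and 0 higher, against 29.6% and 42.5% of all genes. Their part in the differences of the ribosomal protein genes was not tested, and in such bulk RNA fewer cells of a type and less RNA per cell cannot be told apart.

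Promoter windows are shown for genes at the 2 ends of the Id1KO response, Mrpl53 and Mrpl33 among the highest and Mrps5 and Mrps12 among the lowest. Each runs from 250 bases before to 50 bases after the gene start (RefSeq, build GRCm38.p6). Capitals mark matches on either strand to CCGGAAG, an ETS-family motif that GABP binds, or to ATGGCGGC, a core of the YY1 motif.
Mrpl53, chr6:83108858-83109157, plus strand: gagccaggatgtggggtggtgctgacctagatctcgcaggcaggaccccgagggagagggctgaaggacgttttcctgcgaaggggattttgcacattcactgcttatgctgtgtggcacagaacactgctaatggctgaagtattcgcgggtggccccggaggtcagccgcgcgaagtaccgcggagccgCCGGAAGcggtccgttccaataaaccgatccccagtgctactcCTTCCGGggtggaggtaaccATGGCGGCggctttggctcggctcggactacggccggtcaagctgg
Mrpl33, chr5:31613701-31614000, plus strand: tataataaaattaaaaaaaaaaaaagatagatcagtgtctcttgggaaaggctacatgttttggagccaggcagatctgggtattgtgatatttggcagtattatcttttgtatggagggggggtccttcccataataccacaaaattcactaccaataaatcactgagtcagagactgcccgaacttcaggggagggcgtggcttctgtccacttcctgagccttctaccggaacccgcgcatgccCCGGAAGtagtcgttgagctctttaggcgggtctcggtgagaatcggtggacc
Mrps5, chr2:127587176-127587475, plus strand: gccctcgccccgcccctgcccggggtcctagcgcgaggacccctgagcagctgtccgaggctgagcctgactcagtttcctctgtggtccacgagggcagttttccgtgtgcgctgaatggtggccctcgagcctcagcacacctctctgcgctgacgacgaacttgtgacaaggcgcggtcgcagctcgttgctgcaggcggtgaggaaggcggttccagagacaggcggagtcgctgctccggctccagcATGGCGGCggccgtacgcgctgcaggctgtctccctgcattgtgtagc
Mrps12, chr7:28741772-28742071, minus strand: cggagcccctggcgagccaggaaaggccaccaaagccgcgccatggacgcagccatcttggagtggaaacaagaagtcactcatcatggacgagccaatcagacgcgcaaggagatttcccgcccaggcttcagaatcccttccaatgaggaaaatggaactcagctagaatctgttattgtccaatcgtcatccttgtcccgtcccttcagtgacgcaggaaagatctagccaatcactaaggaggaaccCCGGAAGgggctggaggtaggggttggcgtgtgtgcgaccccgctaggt
Mrpl53 held the ETS motif at 2 places and the YY1 core at 1, Mrpl33 and Mrps12 held the ETS motif once and Mrps5 the YY1 core once. Genes at both ends hold these letters. The searched windows were 70, from 64 of the 73 genes. CCGGAAG was in 30% of them and in 8.86% of all 32851 windows, ATGGCGGC in 15.7% and 2.24%, the palindromic NRF1 motif in 17.1% and 4.6%, and CACGTG (E-box) in 8.57% and 7.15%. The windows shown are ones that hold a marked motif, and other genes at the 2 ends were searched but are not shown. Mrpl20 held only the E-box, Mrpl35 only the YY1 core, and Mrpl1 and Mrps2 none of the 4 motifs. Among the tested genes with a window, the median log2 fold change of Id1KO over WT was 0.58 for the 20 with the ETS motif and 0.51 for the 43 without it. With and without the other motifs it was 0.52 and 0.54 (NRF1), 0.54 and 0.53 (YY1 core) and 0.44 and 0.54 (E-box, 4 genes with it). A match describes the letters and is not a binding site.

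In Id1KO against WT cells, the mitochondrial ribosomal protein genes were mostly higher. At a limma adjusted p under 0.05, 62 of the 72 were higher and 4 were lower, against 42.5% of all genes higher and 29.6% lower. Most genes on these arrays passed the threshold in one direction or the other, so the count is read against those shares. Among the 13648 genes whose name is a gene symbol, as those of the ribosome are, 35.4% were higher and 39.6% lower, with a median log2 fold change of -0.04, against 0.44 for the other 8942 names. The median log2 fold change was 0.54 for the ribosomal protein genes and 0.15 for all genes tested. By size, 28 genes were at least 1.5-fold higher and 0 at least 1.5-fold lower (26.2% and 15.7% of all genes). The 4 arrays of the groups did not overlap for 59 genes that were higher and 4 that were lower (38.5% and 27.4% of all genes). The median over the ribosomal protein genes was 0.57, 0.56 and 0.52 within slides 1, 2 and 3. For all genes it was 0.11, 0.18 and 0.15. Slides 1 and 2 each set 1 Id1KO array against 1 WT array, and slide 3 set 2 against 2.

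**Figure D1:**
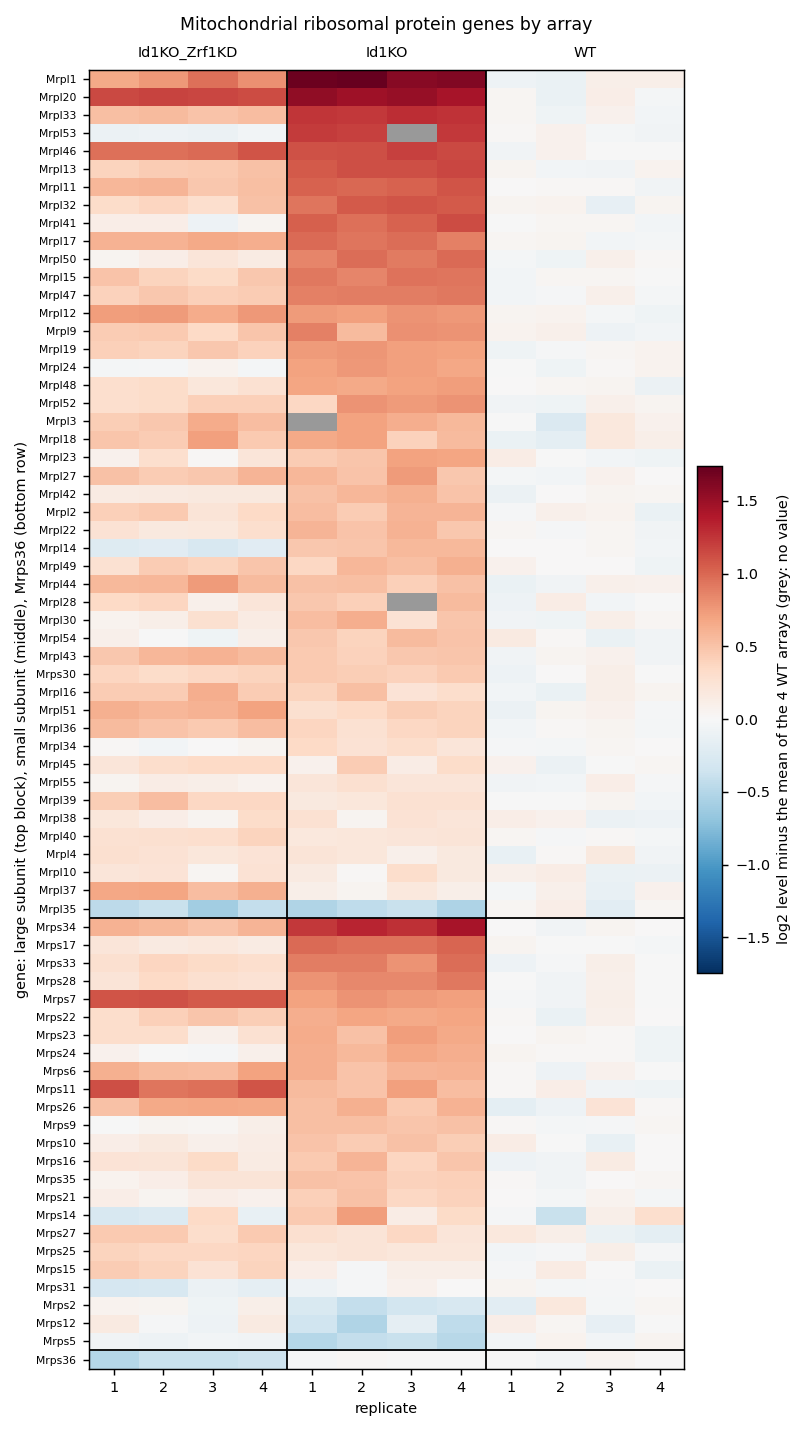
Level of each of the 72 genes (rows) on each of the 12 arrays (columns, 4 replicates a group), as log2 minus the mean of the 4 WT arrays. Most rows are red in Id1KO, and paler in Id1KO_Zrf1KD, while Mrps2, Mrps12, Mrps5 and Mrpl35 are blue in Id1KO; grey cells are the 3 values left out as flagged spots.

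Mrpl1, which encodes the protein of the mobile stalk that helps spent transfer RNA leave, had the largest fold change. Its log2 levels were 2.13, 2.17, 2.02 and 2.03 in Id1KO cells, against 0.33, 0.30, 0.53 and 0.53 in WT cells. All 4 Id1KO arrays lay above all 4 WT arrays, a 3.17-fold difference (log2 1.66, SE 0.08, limma adjusted p = 7.1e-09). Its probe lies at chr5:96667890-96667949 (mm9, plus strand).

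Mrpl20, an early rRNA-binding protein of the large subunit, read 6.48, 6.40, 6.45 and 6.37 in Id1KO cells, against 4.96, 4.82, 5.04 and 4.90 in WT cells. The groups did not overlap, and the level was 2.82-fold higher (limma adjusted p = 5.5e-10). Mrps34, a mitochondria-specific protein needed for a stable small subunit, read 5.05, 5.14, 5.09 and 5.26 in Id1KO cells and 3.83, 3.76, 3.86 and 3.82 in WT cells, 2.49-fold higher (limma adjusted p = 2.2e-09). Mrpl33, a small large-subunit protein with a bacterial relative, read 7.27, 7.24, 7.30 and 7.28 in Id1KO cells and 6.06, 5.94, 6.10 and 5.98 in WT cells, 2.39-fold higher (limma adjusted p = 6.6e-10). None of these 3 genes had overlapping groups.

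Mrpl53 and Mrpl41 are large-subunit proteins without a bacterial relative. Mrpl53 rose 2.32-fold in Id1KO over WT cells (n = 3 against 4, as 1 Id1KO spot was flagged; limma adjusted p = 3.8e-09), and Mrpl41 rose 2.06-fold (limma adjusted p = 2.6e-08). Mrpl46, of the same class, rose 2.21-fold, and Mrpl13, the relative of bacterial L13, rose 2.17-fold.

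4 genes went the other way. Mrps5, Mrps12 and Mrps2 belong to the bacterial core of the small subunit, where Mrps12 sits at the decoding centre. Mrps5 read between 1.99 and 2.09 on the 4 Id1KO arrays, against 2.43, 2.54, 2.43 and 2.53 in WT cells. Every Id1KO array was below every WT array, 1.36-fold lower (log2 -0.45, SE 0.04, limma adjusted p = 2.5e-06). Mrps12 read 4.33, 4.16, 4.52 and 4.23 in Id1KO cells and 4.80, 4.71, 4.53 and 4.67 in WT cells, 1.29-fold lower (limma adjusted p = 0.0034). Its highest Id1KO array was just under its lowest WT array. Mrps2 read 2.58, 2.43, 2.52 and 2.56 in Id1KO cells and 2.66, 3.03, 2.81 and 2.88 in WT cells, 1.25-fold lower (limma adjusted p = 0.0028). Mrpl35, a large-subunit protein with a bacterial relative, read -0.14, -0.06, -0.01 and -0.15 in Id1KO cells and 0.42, 0.50, 0.21 and 0.42 in WT cells, 1.39-fold lower (limma adjusted p = 0.00011). The groups did not overlap for either gene.

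The 3 genes nearest the median of all genes were Mrpl10, the base of the stalk that recruits translation factors, Mrpl4, which lines the exit tunnel, and Mrpl37, a mitochondria-specific protein. Their log2 fold changes of Id1KO over WT were 0.16, 0.17 and 0.11. Mrpl10 and Mrpl37 did not pass the test (limma adjusted p = 0.095 and 0.13), but both were called higher when arrays were scaled on symbol-named probes (0.24 and 0.19, limma adjusted p = 0.021 and 0.018). Mrpl10 was also called with the slide as a block (limma adjusted p = 0.0092) and without Id1KO replicate 2 (0.21, limma adjusted p = 0.043). The second, dimmer Mrpl10 probe gave -0.08 (limma, p adjusted over all probes 0.18). Mrpl4 passed the test (limma adjusted p = 0.03), but turned to -0.11 with quantile normalization and -0.14 in the authors' deposited values, and lost the call without WT replicate 1 or 4 or without Id1KO replicate 1, 2 or 4 (limma adjusted p = 0.056 to 0.084).

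By subunit, 44 of 47 large-subunit genes were higher in Id1KO than in WT cells and 1 was lower, against 18 higher and 3 lower of 24 small-subunit genes. The medians were 0.55 and 0.49. The 3 lower small-subunit genes were all among the 15 with bacterial relatives, and of the 9 mitochondria-specific small-subunit genes 8 were higher and 0 lower. Of all genes, 42.5% were higher and 29.6% lower. Differences between the subunits or between the classes were not tested, and the classes are small.

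**Figure D2:**
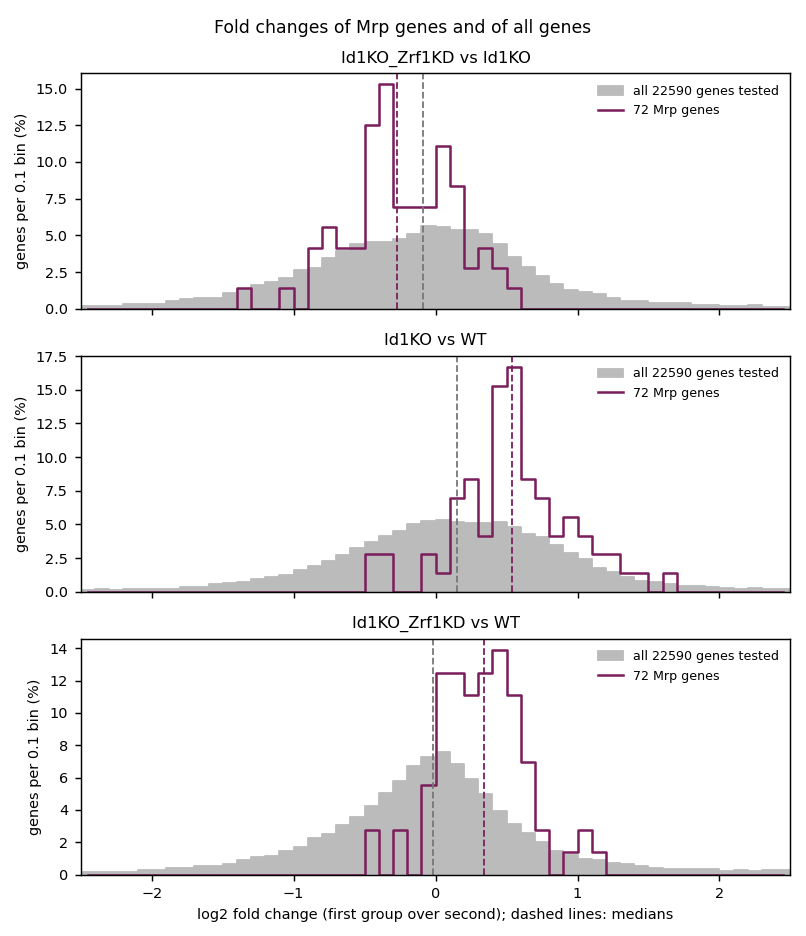
Share of genes per 0.1 bin of log2 fold change, for all 22590 genes tested (grey) and the 72 Mrp genes (line), in each comparison; dashed lines are the medians. The Mrp line is right of the grey median for Id1KO vs WT (0.54 against 0.15) and for Id1KO_Zrf1KD vs WT (0.34 against -0.02), and left of it for Id1KO_Zrf1KD vs Id1KO (-0.27 against -0.09).

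After Zrf1 knockdown in the knockout line, most of the genes were lower. In Id1KO_Zrf1KD against Id1KO cells, 43 of 72 were lower and 12 higher at a limma adjusted p under 0.05, against 39.8% of all genes lower and 32.3% higher. Among genes with a symbol 29.5% were lower and 44% higher. Scaled on the symbol-named probes alone, 50 were lower and 6 higher, beside 49% and 24.4% of all genes. The median was -0.27, against -0.09 for all genes, and fold changes ran between -1.30 and 0.52. By size, 12 genes were at least 1.5-fold lower and 0 at least 1.5-fold higher (25.2% and 15.3% of all genes), and the 12 are 16.7% of the ribosomal protein genes. The arrays did not overlap for 40 lower and 13 higher genes (36.5% and 30.6% of all genes). This comparison and the one of Id1KO with WT use the same 4 Id1KO arrays, so the values of the 2 comparisons are not independent.

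Mrpl53 had the largest decrease, with 3.35, 3.36, 3.35 and 3.40 in Id1KO_Zrf1KD cells, against 4.67, 4.64 and 4.69 in the 3 Id1KO arrays with a value. The groups did not overlap, and the level was 2.47-fold lower (log2 -1.30, SE 0.04, limma adjusted p = 3e-09). Mrpl41 read 3.69, 3.70, 3.49 and 3.63 in Id1KO_Zrf1KD cells, against 4.62, 4.54, 4.61 and 4.72 in Id1KO cells, 2-fold lower (limma adjusted p = 4.5e-08). Mrpl1 was 1.82-fold lower (limma adjusted p = 1.5e-06), Mrps17, a relative of bacterial S17, 1.75-fold lower (limma adjusted p = 7.7e-09), and Mrpl50, a mitochondria-specific large-subunit protein, 1.74-fold lower (limma adjusted p = 1.3e-07). Mrps34 and Mrpl14 were both 1.68-fold lower, and Mrpl33 was 1.65-fold lower. Mrpl14 lies on the face of the large subunit that meets the small one.

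None of the higher genes reached 1.5-fold. Mrpl37 had the largest increase, with 2.30, 2.31, 2.16 and 2.24 in Id1KO_Zrf1KD cells, against 1.72, 1.68, 1.80 and 1.72 in Id1KO cells, 1.44-fold higher (limma adjusted p = 1.1e-05). Mrps11, of the small-subunit platform, read 2.48, 2.29, 2.33 and 2.46 in Id1KO_Zrf1KD cells and 1.91, 1.86, 2.08 and 1.90 in Id1KO cells, 1.37-fold higher (limma adjusted p = 9e-05). Mrps7, of the small-subunit head, read 5.14, 5.16, 5.12 and 5.11 in Id1KO_Zrf1KD cells and 4.75, 4.83, 4.79 and 4.77 in Id1KO cells, 1.27-fold higher (limma adjusted p = 2.1e-05). The groups overlapped for none of these 3 genes. Mrps12, Mrps5 and Mrps2 were 1.34-fold, 1.30-fold and 1.28-fold higher. Mrps15 was 1.22-fold higher and Mrpl51 1.20-fold higher, and neither passed when arrays were scaled on symbol-named probes (limma adjusted p = 0.093 and 0.092).

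Mrps30, Mrpl3 and Mrpl27 were the nearest to the median of all genes, with log2 fold changes of -0.07, -0.11 and -0.07 and limma adjusted p of 0.16, 0.33 and 0.32. All 3 were called lower when arrays were scaled on symbol-named probes, at -0.24, -0.27 and -0.24 (limma adjusted p = 0.00046, 0.025 and 0.0057). Mrps30 was also called with quantile normalization (-0.12, limma adjusted p = 0.036), and Mrpl27 as the mean over its probes (-0.11, limma adjusted p = 0.042). Within the 3 slides the median over the ribosomal protein genes was -0.26 each time, beside -0.1, -0.09 and -0.11 for all genes. Slides 1, 2 and 3 set 2, 1 and 1 Id1KO_Zrf1KD arrays against 1, 1 and 2 Id1KO arrays. Per array, the median of the 72 genes relative to the WT mean was 0.30 to 0.36 in Id1KO_Zrf1KD, 0.52 to 0.56 in Id1KO and -0.01 to 0.04 in WT.

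**Figure D3:**
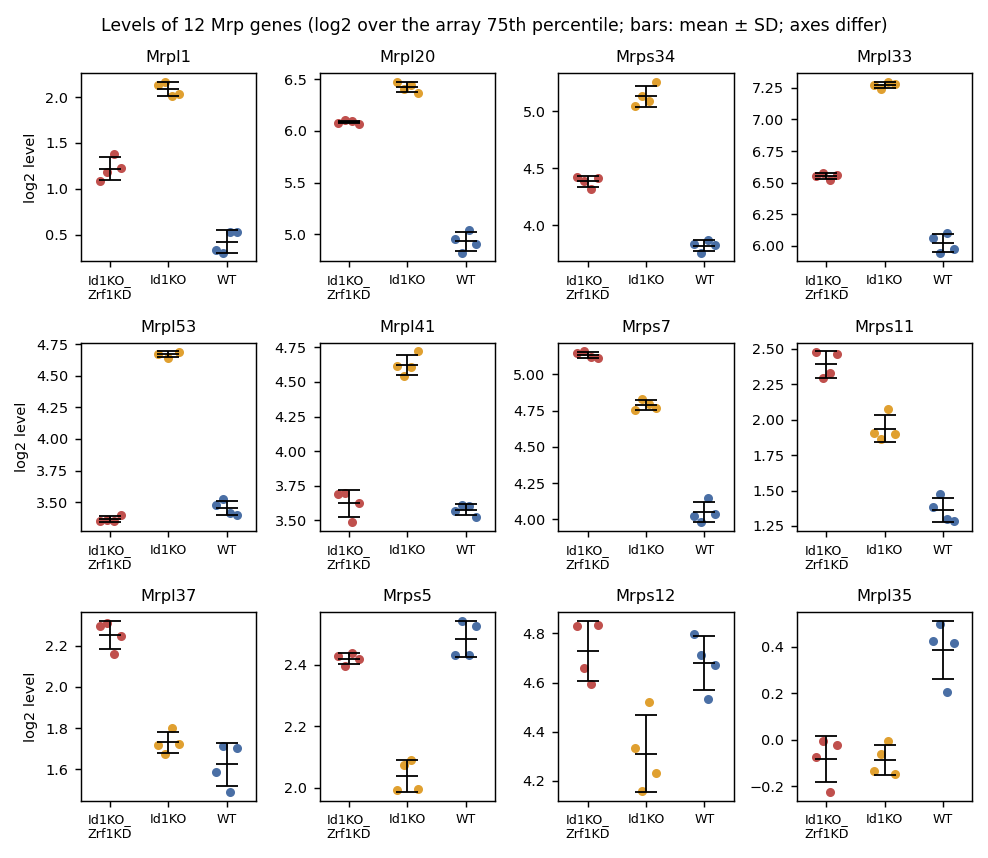
Log2 level (array 75th percentile at 0) of 12 genes on each array, with mean and SD bars; axes differ. Mrpl53 and Mrpl41 average 3.37 and 3.63 in Id1KO_Zrf1KD cells, beside 3.45 and 3.58 in WT cells, Mrps7 and Mrps11 are highest there, Mrps5 and Mrps12 are lowest in Id1KO, and Mrpl35 is lower in both than in WT.

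In Id1KO_Zrf1KD against WT cells, 50 of 72 genes were higher and 4 lower at a limma adjusted p under 0.05, against 32.4% and 32.2% of all genes, and 38.5% and 32.5% of those with a symbol. The median was 0.34, against -0.02. At least 1.5-fold, 12 were higher and 0 lower (16.1% and 17.9% of all genes), and 48 higher and 4 lower genes did not overlap (30.7% and 30.2%). The 12 are 16.7% of the ribosomal protein genes, near the share of all genes. Mrpl20 had the largest increase, with 6.08, 6.10, 6.09 and 6.07 in Id1KO_Zrf1KD cells, against 4.96, 4.82, 5.04 and 4.90 in WT cells, 2.23-fold higher (limma adjusted p = 4.4e-09).

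Mrps7 was 2.12-fold and Mrps11 2.04-fold higher than in WT cells, and Mrpl46 2-fold. The second Mrps7 probe gave a log2 fold change of 0.40 for Id1KO_Zrf1KD over WT, where the one used gave 1.09, and 0.18 for Id1KO over WT, where the one used gave 0.74. Mrpl1, Mrpl12, which binds translation factors at the stalk, Mrpl17 and Mrpl37 were between 1.55-fold and 1.74-fold higher. Mrpl35 was 1.38-fold lower, Mrps36 1.32-fold lower, Mrpl14 1.17-fold lower and Mrps31, a mitochondria-specific small-subunit protein, 1.16-fold lower. By class, the median was 0.42 for large-subunit genes with a bacterial relative and 0.13 for small-subunit ones with a bacterial relative. For mitochondria-specific genes it was 0.33 in the large and 0.37 in the small subunit. Mrpl53 and Mrpl41 did not pass the test against WT cells (limma adjusted p = 0.082 and 0.49).

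Several probes of a gene did not always say the same. Of 22 genes with several kept probes, 20 had probes of the same sign in each comparison, but not the same 20 each time. In Id1KO against WT cells the probes of Mrpl10 differed in sign. Those of Mrps36 gave 0.00 (the one used) and -0.40 (limma, p adjusted over all probes 1.1e-05) there. In Id1KO_Zrf1KD against WT cells the probes of Mrpl41 and of Mrps2 differed in sign. In Id1KO_Zrf1KD against Id1KO cells, Mrps25 and Mrpl9 had probes called in opposite directions. The first 30 bases of each probe are shown because the probes of a pair lie at different places.
Mrps25, transcript base 688: atgggatgaaggccagggttgccagctgct
Mrps25, transcript base 5992: ctacagagattaaaatagactcgaactata
Mrpl9, transcript base 1082: cctagccactattctgacagttgttttatt
Mrpl9, base 763 of a cDNA clone: ttgatcctgtgtggttttcaacagccacaa
For Mrps25 the bright probe gave a log2 fold change of 0.17 (limma, p adjusted over all probes 0.0041) and the dimmer one, at base 5992, gave -0.77 (limma, p adjusted over all probes 2.8e-06). For Mrpl9 the bright probe gave -0.32 and a dimmer probe, above background on 10 arrays, gave 0.68. Scaled on symbol-named probes, the bright Mrps25 probe was at 0.00 (limma adjusted p = 0.98) and its call was lost. Which transcript form each measures was not tested.

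Genes that work with the mitochondrial ribosome were counted in 5 lists, each read against the shares of all genes, which were 42.5% higher and 29.6% lower in Id1KO than in WT cells, and 32.3% higher and 39.8% lower in Id1KO_Zrf1KD than in Id1KO cells. In Id1KO_Zrf1KD against WT cells, 32.4% of all genes were higher and 32.2% lower. Of 10 ribosomal proteins of the mitochondrion whose names fall outside the pattern, 7 were higher and 1 lower in Id1KO than in WT cells, 1 was higher and 8 lower in Id1KO_Zrf1KD than in Id1KO cells, and 6 were higher and 0 lower in Id1KO_Zrf1KD than in WT cells. Chchd1, a small-subunit protein, was 2.72-fold higher in Id1KO than in WT cells and 2.47-fold lower in Id1KO_Zrf1KD than in Id1KO cells. Mrp63, now Mrpl57, was 1.84-fold higher in Id1KO than in WT cells and 1.71-fold lower in Id1KO_Zrf1KD than in Id1KO cells. Mrps18b, chosen after its values were seen, had 1 spot on Id1KO replicate 3 at -6.32 that the software had not flagged, while the other Id1KO arrays read 6.17 to 6.21. Without it, Mrps18b was higher in Id1KO than in WT cells by 0.88 (limma adjusted p = 1.1e-06), as by its second probe (0.66), and the count of higher genes was 8 and not 7. Mrps18b was then also higher in Id1KO_Zrf1KD than in WT cells by 0.79 (limma adjusted p = 1.8e-06), as by its second probe (0.81). The 6 higher genes of that comparison do not include it.

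Of 15 translation factors, 7 were higher and 5 lower in Id1KO than in WT cells, and 6 higher and 5 lower in Id1KO_Zrf1KD than in Id1KO cells. Their median log2 fold changes were 0.24 and -0.01, beside 0.15 and -0.09 for all genes, and the shares called in Id1KO against WT cells were near those of all genes. Mtif2, the initiation factor, was 1.61-fold higher in Id1KO than in WT and 2.27-fold lower in Id1KO_Zrf1KD than in Id1KO cells. Tufm, which brings charged transfer RNA to the ribosome, was 1.51-fold higher in Id1KO_Zrf1KD than in Id1KO cells. Of 17 assembly and rRNA modification factors 9 were higher and 4 lower in Id1KO than in WT, and 3 higher and 8 lower in Id1KO_Zrf1KD than in Id1KO cells, with medians of 0.21 and -0.12. Tfb1m, a methyltransferase of the small-subunit rRNA, was 2-fold higher in Id1KO and 1.48-fold lower in Id1KO_Zrf1KD than in Id1KO cells.

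Of 24 import and chaperone genes, 17 were higher and 3 lower in Id1KO than in WT cells, and 7 higher and 11 lower in Id1KO_Zrf1KD than in Id1KO cells. The medians were 0.36 and -0.10, beside 0.15 and -0.09 for all genes, and in Id1KO_Zrf1KD against Id1KO cells the counts were near the shares of all genes. Timm10, an intermembrane-space chaperone of incoming proteins, was 2.33-fold higher in Id1KO. Of 15 genes of mitochondrial DNA, RNA stability and nuclear regulators 8 were higher and 4 lower in Id1KO than in WT, and 7 higher and 4 lower in Id1KO_Zrf1KD than in Id1KO cells, with medians of 0.30 and 0.15. Nrf1, the nuclear regulator of respiratory genes, was 1.60-fold higher in Id1KO than in WT, while Polg, the mitochondrial DNA polymerase, was 2.07-fold lower. Noa1, Malsu1, Fastkd2, Tefm, Ppargc1a and Ppargc1b were not tested.

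**Figure D4:**
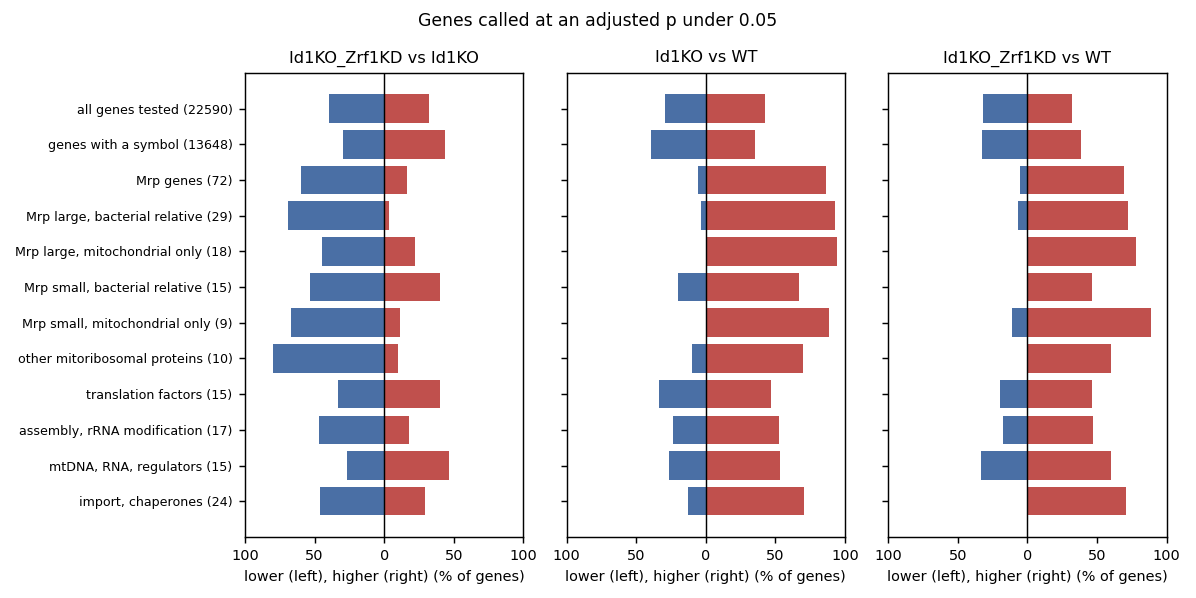
Percent of genes called higher (right) or lower (left) at a limma adjusted p under 0.05, for all genes, Mrp genes by class and 5 related lists, with the number tested in brackets. In Id1KO vs WT the Mrp classes reach further right than all genes, and the small-subunit class with bacterial relatives has the largest share of lower genes among them.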

How the data were processed

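Total RNA was labelled with Cy3 and hybridised to 12 one-colour Agilent arrays, 4 per group. Per the file headers, the deposited scanner files were made with Feature Extraction 10.7.3.1, whose processed signal is a background-corrected intensity for each spot, and probe positions are on mm9. The authors' deposited value table holds log2 values with a median of 6.55 in each column, and it served as an alternative. Here, log2 of the processed signal was set against each array's 75th percentile over non-control spots. Spots flagged as outliers were left out, which removed 1 value each for Mrpl3, Mrpl28 and Mrpl53. A probe was kept if well above background on all 4 arrays of a group, and the brightest kept probe stood for its gene. One limma 3.58.1 fit (R 4.3.3) over the 3 groups gave 3 comparisons, with Benjamini-Hochberg adjustment over all 22590 genes and a threshold of 0.05. It was tested on simulated data. The number of arrays limits the precision. Per comparison, named genes were the 8 highest and 8 lowest fold changes among called members whose arrays did not overlap, from which examples are given, the 3 members nearest the median of all genes (both comparisons with Id1KO), members whose probes were called in opposite directions, and up to 4 genes of each related list with the smallest adjusted p. Dnajc2 and Id1 were always named, and Mrps18b was added after its values were seen. The members and lists were chosen with earlier results of these data known. Same-numbered arrays did not deviate together (median correlation -0.20), so replicate numbers were not used as pairs. Arrays of different groups on the same slide had a median correlation of 0.24, and the main fit held no slide term. Alternatives were the background correction, normalization, scaling, probe filter, probe choice, slide and replicate blocks, single slides and leaving out each array.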

Additional observations from a re-analysis of the deposited data

Results flagged for a closer look

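A sample far from the other 3 of its group, by the gap over the group's range, was found in 13 of 210 sets of 4 arrays, over 71 named genes. For sets not chosen by their values, chance gives about 1 in 20. That rate does not apply here, because most genes were named by their results in these data, and Mrps18b after its values were seen. Values are log2 levels.

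Mrps15 read 3.30 on Id1KO replicate 2, while the other 3 arrays read 3.42 to 3.44. On WT replicate 3, Mrps25 was at 5.43, beside 5.28 to 5.31 on the other 3. The level of Tufm on Id1KO replicate 3 was 4.58, with the others at 4.64 to 4.65. Pam16 read 5.71 on Id1KO replicate 2, while the other 3 arrays read 5.75 to 5.76. On Id1KO_Zrf1KD replicate 3, Ngrn was at 4.57, beside 4.28 to 4.33 on the other 3. The level of Mterfd2 on Id1KO_Zrf1KD replicate 3 was 1.81, with the others at 1.70 to 1.71. Gtpbp5 read 2.24 on Id1KO_Zrf1KD replicate 3, while the other 3 arrays read 2.42 to 2.45. On Id1KO_Zrf1KD replicate 3, Id1 was at 0.92, beside 0.57 to 0.62 on the other 3. The level of Timm10 on WT replicate 3 was 3.46, with the others at 3.32 to 3.35. Grpel1 read 5.06 on WT replicate 1, while the other 3 arrays read 4.99 to 4.99. On Id1KO_Zrf1KD replicate 2, Gtpbp10 was at 2.60, beside 2.63 to 2.64 on the other 3. The level of Gfm1 on Id1KO_Zrf1KD replicate 3 was 4.58, with the others at 4.40 to 4.41. Mrps18b read -6.32 on Id1KO replicate 3, while the other 3 arrays read 6.17 to 6.21.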

How the results depend on the processing

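With another background correction (normexp), the median log2 fold change of the ribosomal protein genes was -0.22 for Id1KO_Zrf1KD over Id1KO and 0.49 for Id1KO over WT. With quantile normalization the medians were -0.24, 0.42 and, for Id1KO_Zrf1KD over WT, 0.20, with 8 genes lower in the last comparison. In the authors' deposited values they were -0.24, 0.40 and 0.18, with 7 lower in the last. Scaled on symbol-named probes they were -0.43, 0.62 and 0.26, with 6 genes higher in Id1KO_Zrf1KD than in Id1KO, against 24.4% of all genes. Within slide 1 the median of Id1KO over WT was 0.57 (1 array against 1). Within slide 3 that of Id1KO_Zrf1KD over WT was 0.31 (1 array against 2). All these medians kept their direction. The median of all genes moved with the scaling, for Id1KO over WT to 0.02 with quantile normalization and 0.23 on symbol-named probes, beside 0.15. Relative to it, the ribosomal protein genes were 0.33 to 0.40 higher in Id1KO than in WT, 0.21 to 0.36 higher in Id1KO_Zrf1KD than in WT, and for Id1KO_Zrf1KD over Id1KO their difference was between -0.25 and -0.09. Leaving out 1 array at a time gave 11 to 13 higher and 40 to 43 lower genes for Id1KO_Zrf1KD against Id1KO (medians -0.28 to -0.26), 60 to 63 higher for Id1KO against WT (0.52 to 0.55) and 48 to 51 higher for Id1KO_Zrf1KD against WT (0.32 to 0.34). With the replicate block, 11 were higher and 40 lower (median -0.27) in the first comparison, 60 and 4 (0.54) in the second and 50 and 4 (0.34) in the third. Apart from symbol scaling, the counts of these settings are given without the share of all genes in the same setting. They are therefore not read against the whole array. Among named genes the block changed 1 call, that of Mrpl4. Other changed calls, of Mrpl10, Mrpl37, Mrps30, Mrpl3, Mrpl27, Mrps15, Mrpl51, Mrps25 and Id1, stand beside their values. Mrps18c, Id1KO_Zrf1KD over WT, was at 0.27 in the main fit (limma adjusted p = 0.0022). In the deposited values it was at 0.14 and lost its call (limma adjusted p = 0.05).

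Signs turned for few genes. Averaged over probes, Id1KO_Zrf1KD over Id1KO gave 0.18 for Mrpl9, -0.30 for Mrps25 and 0.05 for Ssbp1, and Id1KO over WT gave -0.05 for Ssbp1. In the main fit Ssbp1 was at -0.61 and 0.92 in these 2 comparisons (limma adjusted p = 4.7e-06 and 2e-07). Averaged over probes it lost both calls (limma adjusted p = 0.9 and 0.89). With probes above background on all arrays, Ssbp1 was 0.03 for Id1KO_Zrf1KD over Id1KO and Mrps18b was 0.66 for Id1KO over WT. Mrpl4, Id1KO over WT, was -0.11 with quantile normalization and -0.14 in the deposited values. Mrps18b was -0.09 for Id1KO_Zrf1KD over Id1KO and 0.88 for Id1KO over WT without Id1KO replicate 3 or its dim spot, a setting chosen after seeing the data, and reached 4.09 and -3.30 without Id1KO replicate 4. Beyond construction of the settings, the cause was not tested.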
